A study of Mus musculus with 27 samples.

Results

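The probe sets described here measure the genes of the major histocompatibility complex (MHC) and of antigen presentation in mouse whole brain. They are all the sets of one array platform whose annotated symbol, or any one of several, starts with H2- or is B2m, Tap1, Tap2, Tapbp, Psmb8, Psmb9, Psmb10, Psme1, Psme2, Cd74 or Ciita. This choice gave 65 probe sets for 48 genes, of 12488 sets and 8949 genes on the platform. Of the 65 sets, 52 carried 1 symbol and 13 carried several. By the suffix of their names, 33 were plain sets ending in at, 18 ended in f_at, 5 in s_at, 4 in r_at, 3 in g_at and 2 in i_at. A set ending in f_at matches a family of similar sequences and an s_at set can match several transcripts, so these suffixes were kept apart from plain sets throughout. Most H2 heavy chain genes are close relatives of each other, and how far a set read the gene it is named for was not tested.

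The study measured RNA levels in whole brains of inbred mice of 2 strains, to compare their expression patterns. On the platform used here there was 1 array per animal. The DBA group was 4 naive DBA/2J mice, 10 weeks old, whose sex the labels do not give. The C57 group was 5 naive male mice of the same age, whose strain the labels write as C57BL/2. Groups were taken from the sample titles, since every sample description, those of DBA mice included, also carries the alternative name C57 1. Nothing in the labels tells of litters, dissection or processing days. Each array measured a whole organ, so fewer cells of a type and less RNA per cell cannot be told apart.

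Class I molecules are a polymorphic heavy chain (H2-K, H2-D and, in some haplotypes, H2-L) bound to the light chain beta-2-microglobulin, and they show peptides from inside the cell to CD8 T cells. The proteasome cuts these peptides, the transporter Tap1/Tap2 carries them into the endoplasmic reticulum, and tapasin (Tapbp) helps to load them. Class II molecules, made of an alpha and a beta chain, show peptides from the endosome to CD4 T cells on professional antigen-presenting cells. In the healthy brain both classes are known to be low in most neurons, with class II mainly on a few microglia and on cells of the borders and vessels. As background, the common C57BL substrains carry the b haplotype of the H2 complex and DBA/2 carries the d haplotype, and the b haplotype is known for making no E alpha chain. Whether the H2 sets match the alleles of both strains equally well could not be checked. Whether both strains carry the same H2 genes, H2-L among them, was not checked either. In an H2 set, strain differences in RNA level, in match to the allele and in the genes carried therefore cannot be told apart.

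Promoter sequences were taken from RefSeq for the classical class I genes whose sets differed, for H2-T23 and for the light chain gene B2m. H2-T23 shares with H2-T-ps a set that went the other way, and the set of B2m was not past the threshold. The sequences are of build GRCm38.p6, the C57BL/6J reference. Each runs 5′ to 3′ on the strand of the gene, 250 bases before to 50 bases after the start. Capitals mark matches to 3 motifs searched on both strands: the core of the kappa B site of class I promoters (GGGATTCCC), the Y box with an inverted CCAAT (CTGATTGG) and the core of the interferon-stimulated response element (TTCNNTTTC). H2-K1 has 2 windows in the table, of which 1 is shown.
H2-K1 promoter, chr17:34000298-34000597, minus strand: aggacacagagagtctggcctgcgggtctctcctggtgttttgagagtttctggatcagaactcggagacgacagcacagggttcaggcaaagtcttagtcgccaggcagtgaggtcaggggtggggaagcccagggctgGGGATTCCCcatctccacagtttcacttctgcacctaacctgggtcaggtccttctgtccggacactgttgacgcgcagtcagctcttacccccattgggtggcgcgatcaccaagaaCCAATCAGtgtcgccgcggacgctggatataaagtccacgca
H2-D1 promoter, chr17:35262844-35263143, plus strand: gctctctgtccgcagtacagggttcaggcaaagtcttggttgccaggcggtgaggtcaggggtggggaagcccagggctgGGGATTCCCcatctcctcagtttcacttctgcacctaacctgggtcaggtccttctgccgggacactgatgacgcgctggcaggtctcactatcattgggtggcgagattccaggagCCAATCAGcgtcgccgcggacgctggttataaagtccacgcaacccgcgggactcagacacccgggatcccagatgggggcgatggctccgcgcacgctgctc
H2-T23 promoter, chr17:36032652-36032951, minus strand: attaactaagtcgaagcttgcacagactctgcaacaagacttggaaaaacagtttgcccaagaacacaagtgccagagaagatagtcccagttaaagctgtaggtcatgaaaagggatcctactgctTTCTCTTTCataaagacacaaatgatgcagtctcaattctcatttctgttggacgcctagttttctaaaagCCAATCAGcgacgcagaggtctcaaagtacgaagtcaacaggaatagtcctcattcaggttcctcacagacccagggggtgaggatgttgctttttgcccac
B2m promoter, chr2:122147437-122147736, plus strand: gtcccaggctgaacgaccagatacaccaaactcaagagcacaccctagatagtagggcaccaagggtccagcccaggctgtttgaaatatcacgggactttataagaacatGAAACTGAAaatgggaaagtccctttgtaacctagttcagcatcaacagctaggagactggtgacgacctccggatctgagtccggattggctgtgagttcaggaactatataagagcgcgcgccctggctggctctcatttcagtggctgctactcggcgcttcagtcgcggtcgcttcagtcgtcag

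A promoter window was found for 32 of the 48 genes. The kappa B core stood in the windows of 3 of them (H2-K1, H2-D1 and H2-Q7), against 0.353% of all 32851 windows of this length. The Y box stood in 14 of the 32, against 4.10% of all windows. The windows of Psmb9 and Tap1 overlap and hold the same Y box, which was counted for both. A gene with several windows was counted if any of them held a motif, while the share over all windows counts each window. The interferon response core stood in 4 of the 32 (B2m, H2-T22, H2-T23 and Psme1), against 8.56% of all windows. The H2-K1 and H2-D1 windows shared an identical run of 47 bases, while the longest run that H2-T23 shared with either was 12 bases and the longest that B2m shared was 8. A match is a description of these letters in the reference strain, and the DBA/2J sequence was not used here. Only these exact letters were searched. A window without a match, those of H2-K1 and H2-D1 included, may still hold a variant of the same element.

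Of the 65 member sets, 49 were bright enough to be tested and 16 were under the brightness limit, a geometric mean intensity of 35.4 over the 9 animals. Differences are given as log2 intensity, DBA minus C57, ± the standard error, with 4 DBA and 5 C57 animals in every one, and were tested with limma over all 9316 sets above the limit with Benjamini-Hochberg adjustment and a threshold of 0.05. In DBA brain 5 member sets were higher and 1 was lower. These 6 sets were 12.2% of the 49 tested members, where 2.5% of all tested sets passed the threshold, 0.891% as higher and 1.61% as lower in DBA. The animals of the strains did not overlap in 11 of the 49 member sets, or 22.4%, against 6.45% of all tested sets. The median member difference was 0.17, with 29 sets above 0 and 20 below. Over all tested sets the median was 0.01.

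The counts differed by type of set. Among f_at sets 4 of 18 were past the threshold, against 3.58% of all tested f_at sets on the array, and all 4 named the classical heavy chains H2-K1 or H2-D1. Among tested s_at sets 1 of 4 passed, against 3.82% across the array, and it named H2-Ke6. Among plain at sets 1 of 21 passed, against 2.48% across the array, and that set carried 2 symbols. None of the 19 tested plain sets with 1 symbol passed by limma, and 5 of them had an unadjusted p under 0.05, a mark that 12.2% of all tested sets (1134 of 9316) also met. None of the 3 g_at, 1 i_at and 2 r_at sets tested passed, and none of them had an unadjusted p under 0.05.

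**Figure D1:**
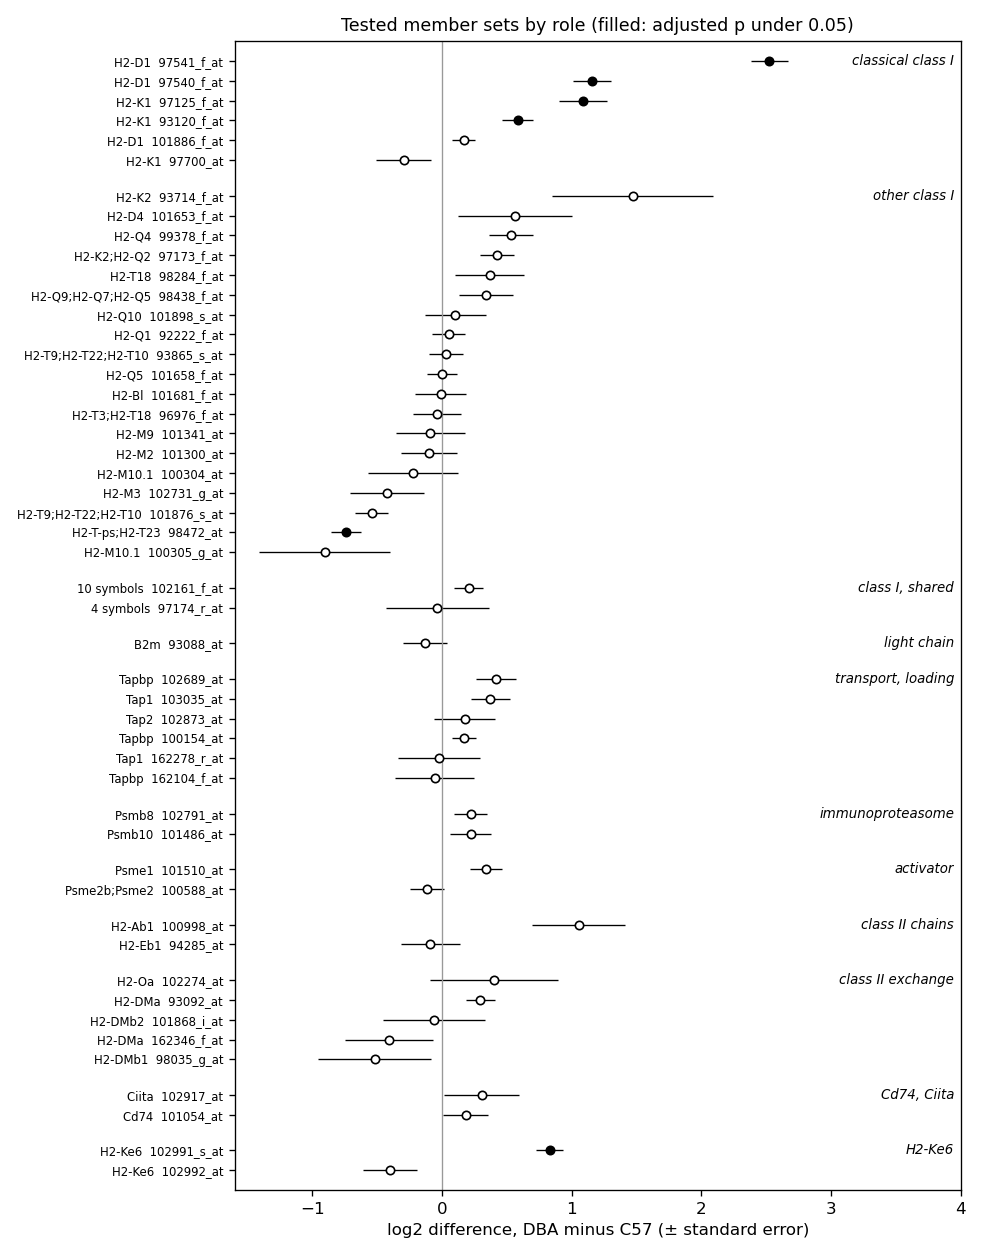
Log2 difference, DBA minus C57, of the 49 tested member sets, grouped by role from top to bottom, with bars for the standard error (4 DBA and 5 C57 animals). The 6 filled points passed the threshold: 4 sets of H2-D1 and H2-K1 and 1 of H2-Ke6 lie right of 0, and the set of H2-T-ps and H2-T23 lies left of it.

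Of the 6 sets of the classical class I heavy chains H2-D1 and H2-K1, which present peptides to CD8 T cells, 4 were higher in DBA brain and none was lower. For H2-D1, set 97541_f_at read 389.9, 404, 286 and 377 in the DBA animals, against 58.3, 62.8, 58.8, 78.2 and 57.7 in the C57 animals. The lowest DBA animal lay far above the highest C57 animal. This set was 5.75-fold higher in DBA (2.52 ± 0.14, adjusted p = 1.09e-05), the largest difference of any tested member set in either direction. A second H2-D1 set, 97540_f_at, read 1778, 1605, 1133 and 1726 in DBA and 704, 762, 655, 721 and 614 in C57. Again no DBA animal came down to the C57 range, and the set was 2.23-fold higher in DBA (1.16 ± 0.15, adjusted p = 0.00198). The brightest H2-D1 set by its mean, 101886_f_at, read 1284, 1253, 1130.1 and 1228 in DBA and 1032, 1128, 1071, 1118 and 1101 in C57. Its strains also did not overlap, but by a small margin, and the difference was 0.17 ± 0.09 (adjusted p = 0.517). The 3 H2-D1 sets thus gave 3 sizes under 1 gene symbol, and what set them apart was not tested. All 3 are f_at sets, so how much of each signal came from H2-D1 is not known. Their match to the alleles of both strains was not checked either.

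H2-K1 sets also disagreed with each other. Set 97125_f_at read 266, 262, 239 and 343 in DBA and 115, 134, 136, 180.2 and 96.1 in C57, without overlap. It was 2.13-fold higher in DBA (1.09 ± 0.18, adjusted p = 0.0102). Set 93120_f_at read 1468, 1437, 1176 and 1487 in DBA and 809.5, 1064, 849.7, 926 and 1000.3 in C57. DBA animal 3 stood apart below the other 3 DBA animals yet above every C57 animal, and the set was 1.498-fold higher in DBA (0.58 ± 0.12, adjusted p = 0.0346). This last call was the least stable: it was lost when any of 7 of the 9 animals was left out, all but C57 animal 2 and DBA animal 3, with adjusted p up to 0.115. It was also lost with arrays centred on their median (0.157), without the filter on dim sets (0.0702) and with the animal number as a block (0.201). The only plain set of H2-K1, 97700_at, read 84.6, 112, 64.9 and 66.7 in DBA and 136, 86.7, 108, 93.6 and 77.1 in C57. These ranges overlapped, and the difference had the other sign without passing the threshold (-0.30 ± 0.21, adjusted p = 0.661).

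DBA animal 3 was the lowest DBA animal in all 4 H2-D1 and H2-K1 sets past the threshold. Without this animal the differences were 2.64 for 97541_f_at, 1.304 for 97540_f_at, 1.16 for 97125_f_at and 0.66 for 93120_f_at, and all 4 still passed. The calls of 97541_f_at, 97540_f_at and 97125_f_at held whichever single animal was left out.

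**Figure D2:**
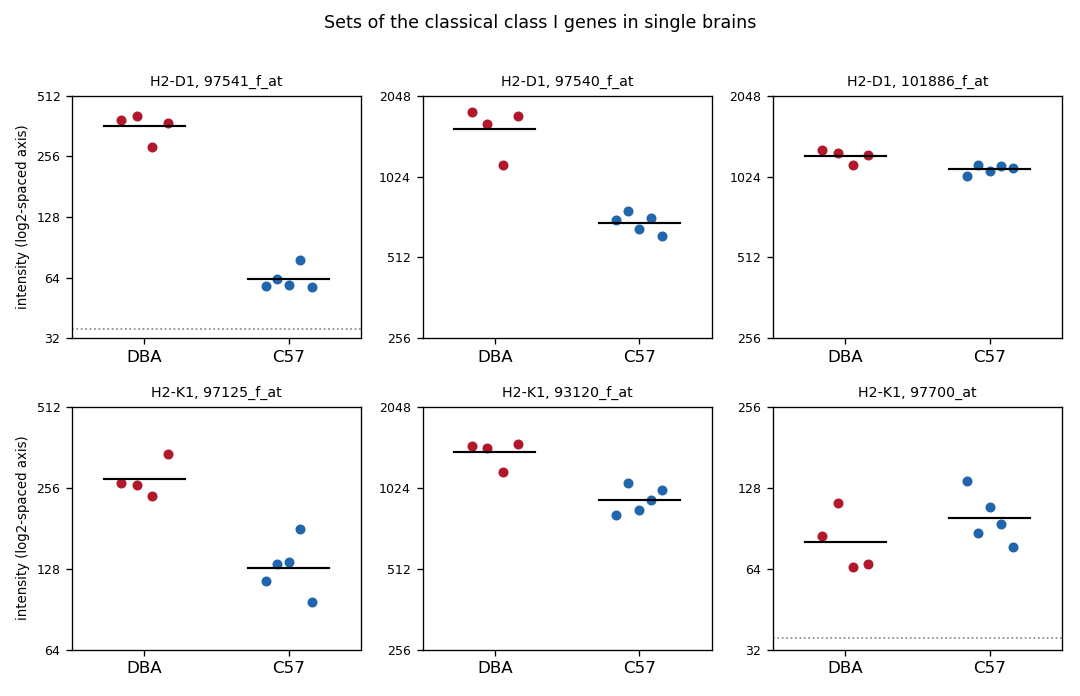
Intensity on a log2-spaced axis of the 6 sets of H2-D1 (top) and H2-K1 (bottom) in single brains, DBA left and C57 right, with a line at the geometric mean and a dotted line at the brightness limit where it falls in the panel. DBA animals lie above C57 animals without overlap in 5 panels, by a wide margin for 97541_f_at and a narrow one for 101886_f_at, and 97700_at overlaps.

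Sets naming classical and other heavy chain genes together did not pass. Set 102161_f_at carries 10 symbols, H2-K1 and H2-D1 among them. It read 578, 559, 581 and 674 in DBA and 459.9, 586, 472, 576 and 508 in C57, which overlap, with a difference of 0.20 ± 0.11 (adjusted p = 0.546). Set 97174_r_at names H2-K1 with 3 Q region genes and was dim, at 35.3, 112, 58.0 and 33.2 in DBA and 49.3, 40.4, 79.9, 82.1 and 35.0 in C57. Its strains overlapped widely (-0.04 ± 0.40, adjusted p = 0.984).

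The other class I heavy chain genes of the K, D, Q, T and M regions, which are less polymorphic and include genes with restricted or specialised expression, had 19 tested sets. None of them passed as higher and 1 passed as lower, with a median difference of 0.00, where all tested sets had a median of 0.01. By limma 5 of the 19 had an unadjusted p under 0.05, a mark that 12.2% of all tested sets met. Among these 5, set 99378_f_at of H2-Q4 was higher in DBA with overlap (0.53 ± 0.17, adjusted p = 0.198), and the others are described below. The set that passed was the plain set 98472_at, named for H2-T23, whose product Qa-1 presents leader peptides of other class I chains to the CD94/NKG2 receptors, together with the pseudogene H2-T-ps. It read 105, 107, 101 and 109.7 in DBA and 168, 197, 155, 211 and 160.5 in C57. The 4 DBA animals lay close together and all below the C57 animals, and the set was 1.67-fold lower in DBA (-0.74 ± 0.12, adjusted p = 0.00629). Which of its 2 genes the signal came from cannot be told from this set. The call held whichever single animal was left out and was lost with the animal number as a block (adjusted p = 0.0884).

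H2-T22 and H2-T10, whose products bind gamma delta T cell receptors, share sets with H2-T9. Set 101876_s_at read 288, 219, 236 and 289 in DBA and 394, 435, 348, 344 and 355 in C57. The DBA animals lay below all C57 animals, but the difference missed the threshold (-0.54 ± 0.13, adjusted p = 0.0591). It passed with the dimmest 50% of sets left out (adjusted p = 0.0242) and with a mean-variance trend (0.0467). It did not pass under the other alternatives, with an adjusted p of 0.111 with median centring and without the filter, 0.339 with the animal number as a block, and 0.0632 to 0.180 with 1 animal left out. The other set with the same 3 symbols, 93865_s_at, differed by 0.03 ± 0.13 (adjusted p = 0.959).

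H2-K2, a class I gene beside H2-K1, had the largest difference of this group by 93714_f_at. It read 881, 969.8, 1155 and 1100.2 in DBA and 322, 857, 71.6, 684 and 503 in C57. The C57 animals spread widely, animal 3 being the lowest, and the highest of them came close to the lowest DBA animal. The difference was 1.47 ± 0.62 (adjusted p = 0.37) and fell to 0.88 without C57 animal 3. Set 97173_f_at, shared by H2-K2 and H2-Q2, read 190.1, 165, 201 and 247 in DBA and 143, 164, 137, 159 and 139.7 in C57. Its strains were set apart by less than 1 unit of intensity (0.42 ± 0.13, adjusted p = 0.17). The brightest set of the group by mean log2 intensity, 98438_f_at, names the Qa-2 genes H2-Q7 and H2-Q9 with H2-Q5 and read 709, 905, 718 and 654 in DBA and 406, 718, 455, 739.6 and 704 in C57, with overlap (0.34 ± 0.21, adjusted p = 0.596).

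B2m, the light chain to which the classical heavy chains are bound, was not past the threshold. Its plain set 93088_at read 2069.5, 1544, 2474 and 2158 in DBA and 2077, 2693, 1737, 2498 and 2246 in C57. DBA animal 2 was the lowest of the 9 and the strains overlapped, with a difference of -0.13 ± 0.17 (adjusted p = 0.843). Without DBA animal 2 it was 0.00.

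Peptide transport and loading genes had 6 tested sets, none past the threshold and 2 with an unadjusted p under 0.05, with differences between -0.06 and 0.41. The brightest, the tapasin set 100154_at, read 453, 412, 458 and 406 in DBA and 399.8, 371, 356, 406 and 391 in C57. The lowest DBA animal lay just under the highest C57 animal (0.17 ± 0.09, adjusted p = 0.543). The 2 sets with the small p were 102689_at of Tapbp (0.41 ± 0.16, adjusted p = 0.293) and 103035_at of Tap1 (0.37 ± 0.15, adjusted p = 0.353). Tap2 differed by 0.17 ± 0.24 in 102873_at.

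Immunoproteasome subunits replace the constitutive catalytic subunits under interferon and in immune cells. The brightest set, 101486_at of Psmb10, read 1351, 1371, 1278 and 1121 in DBA and 828.6, 1152, 953, 1411 and 1232 in C57. The C57 range enclosed the DBA range, and the difference was 0.22 ± 0.16 (adjusted p = 0.675). Psmb8 differed by 0.22 ± 0.13 in 102791_at (adjusted p = 0.556), and the set of Psmb9 was under the brightness limit. The proteasome activator subunit Psme1, in 101510_at, read 812, 685, 807 and 642 in DBA and 537, 612, 494, 617 and 647 in C57. One DBA animal fell inside the C57 range (0.34 ± 0.12, adjusted p = 0.268). Its partner Psme2, sharing 100588_at with Psme2b, differed by -0.12 ± 0.13 (adjusted p = 0.813).

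A list of 16 genes, the constitutive proteasome core with the activator genes Psme3 and Psme4, was set beside the members. In this list 1 gene passed the threshold and it was lower in DBA. Psmb6 encodes the caspase-like catalytic subunit whose place Psmb9 takes in the immunoproteasome. Its set 101992_at read 671, 722, 707 and 587 in DBA and 1446, 2106, 1585, 1675 and 1615 in C57. No DBA animal reached the C57 range, and the set was 2.50-fold lower in DBA (-1.32 ± 0.13, adjusted p = 0.000373), whichever animal was left out. The sets of the other constitutive catalytic subunits differed by -0.08 ± 0.15 (Psmb5, 101558_s_at, adjusted p = 0.892) and -0.07 ± 0.10 (Psmb7, 94263_f_at, adjusted p = 0.864). Psmb9 itself read 77.9, 18.9, 14.5 and 64.2 in DBA and 50.6, 11.4, 18.7, 60.7 and 16 in C57, overlapping around the limit.

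**Figure D3:**
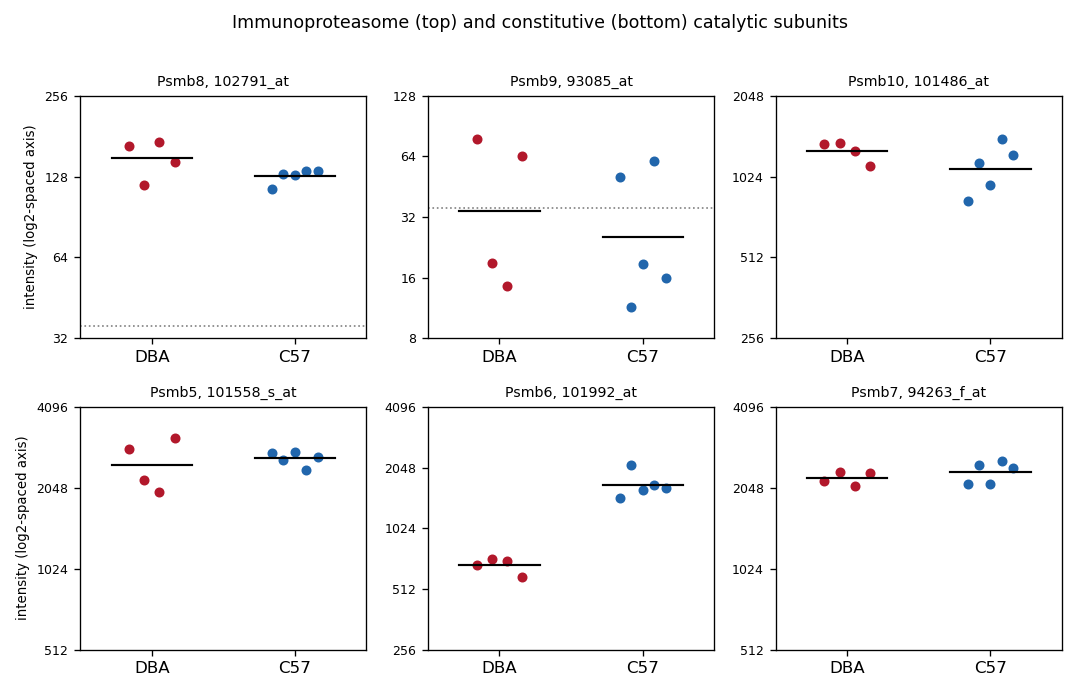
Intensity on a log2-spaced axis of the catalytic subunits of the immunoproteasome (top) and of their constitutive counterparts below each, in single brains, DBA left and C57 right, with a line at the geometric mean and a dotted line at the brightness limit where it falls in the panel. Psmb6 is lower in all 4 DBA animals, and the other 5 panels overlap.

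Of the 6 sets of class II chains 4 were under the brightness limit. The other 2 were tested and none passed by limma, with 1 at an unadjusted p under 0.05. The beta chain gene H2-Eb1, the brightest, read 112, 164, 243 and 145 in DBA and 204, 195, 123, 174 and 169 in C57 in set 94285_at. The animals were mixed, with a difference of -0.09 ± 0.23 (adjusted p = 0.923). H2-Ab1, the A beta chain, differed by 1.05 ± 0.36 in 100998_at (adjusted p = 0.227), with all 5 C57 animals and 1 DBA animal at 51.3 or lower. H2-Ea, the E alpha chain, was under the limit and not tested with the rest, and it was singled out after its values were seen. Set 102904_at read 40.1, 52.1, 39.0 and 70.2 in DBA and 7.2, 18.9, 23.8, 4.9 and 5.1 in C57, without overlap. In a fit without the brightness limit the difference was 2.35 (adjusted p = 0.0746, and between 0.0289 and 0.201 with 1 animal left out, under the threshold only without C57 animal 3). With intensities floored at 16 it was 1.45 (adjusted p = 0.0106), and with the animal number as a block it was 2.12 (adjusted p = 0.388). All 5 C57 values lay under the brightness limit, so the size of this difference is uncertain. It was the only one of the 16 member sets under the limit whose strains did not overlap.

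H2-DMa, a chain of the DM molecule that exchanges peptides on class II, read 966, 924, 1110.2 and 882 in DBA and 731, 703, 870.2, 857 and 796 in C57 in the plain set 93092_at. All DBA animals lay above the C57 animals, the closest pair 882 and 870.2, and the difference did not pass (0.29 ± 0.11, adjusted p = 0.305). The other H2-DMa set, 162346_f_at, overlapped and had the other sign (-0.41 ± 0.34, adjusted p = 0.723). None of the 5 tested sets of class II peptide exchange passed, and 1 had an unadjusted p under 0.05. The invariant chain gene Cd74, whose product escorts class II chains to the endosome, read 252, 324, 223 and 254 in DBA and 309, 219, 258, 182 and 202 in C57 in set 101054_at. The strains overlapped (0.18 ± 0.17, adjusted p = 0.776). Ciita, the master regulator of class II genes, differed by 0.30 ± 0.29 (adjusted p = 0.776).

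H2-Ke6 lies in the K region of the complex but encodes a steroid dehydrogenase (Hsd17b8) with no known role in antigen presentation, and it is a member by its symbol. Set 102991_s_at read 572, 460, 591 and 542 in DBA and 310.4, 316, 313, 290.2 and 288 in C57. The strains were well apart and the set was 1.78-fold higher in DBA (0.83 ± 0.10, adjusted p = 0.00181). This call held whichever single animal was left out and was lost with the animal number as a block (adjusted p = 0.0859). The other set, 102992_at, read 57.6, 44.1, 49.7 and 35.6 in DBA and 65.2, 55.5, 92.4, 51.2 and 49.3 in C57. It overlapped with the other sign (-0.41 ± 0.21, adjusted p = 0.5), so the 2 sets of this gene disagreed as well.

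**Figure D4:**
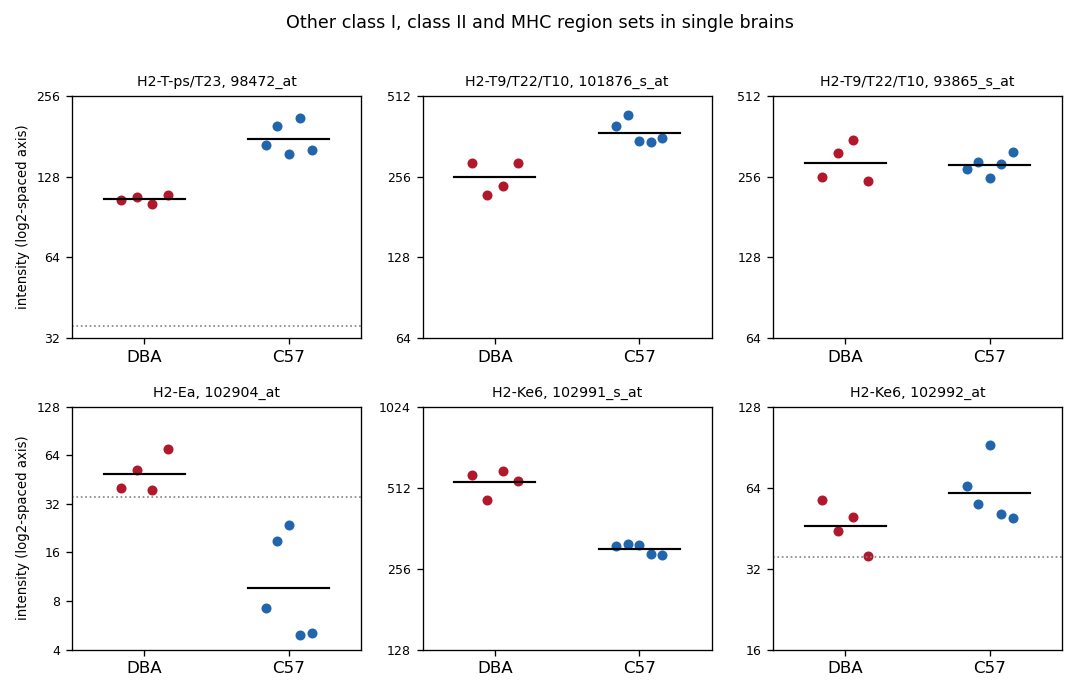
Intensity on a log2-spaced axis of other class I sets (top), H2-Ea and the 2 H2-Ke6 sets (bottom) in single brains, DBA left and C57 right, with a line at the geometric mean and a dotted line at the brightness limit where it falls in the panel. DBA animals lie below C57 animals for 98472_at and 101876_s_at and above them for H2-Ea and 102991_s_at, while 93865_s_at and 102992_at overlap.

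Genes of other kinds that lie between the first and the last H2- gene on chromosome 17 in the RefSeq gene table were measured by 92 sets for 74 genes. Of the 68 sets tested, none passed the threshold by limma, where 2.5% of all tested sets did. An unadjusted p under 0.05 was found for 8 of the 68, against 1134 of the 9316 sets over the array, and the median difference was 0.02. The strains did not overlap in 2 of the 68 (2.94%, against 6.45% of all tested sets), a set each of Tubb5 and Znrd1, both higher in DBA. Whether the share past the threshold differs between the members and these neighbours was not tested.

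**Figure D5:**
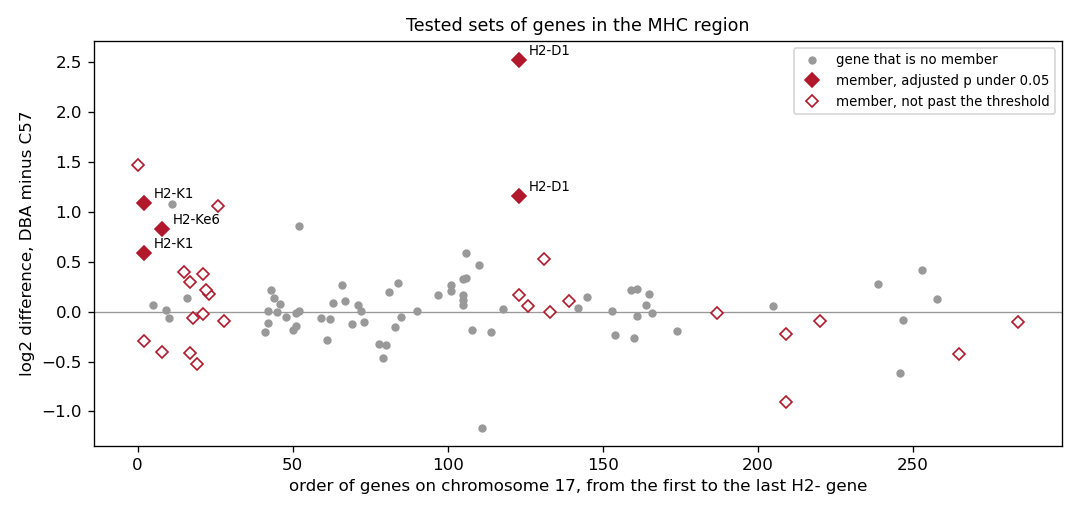
Log2 difference, DBA minus C57, of tested sets of genes in the MHC region against the order of the genes along chromosome 17, for 30 member sets with 1 symbol (diamonds, filled past the threshold) and 68 sets of neighbouring genes (grey). The 5 filled diamonds are 2 sets each of H2-K1 and H2-D1 and 1 of H2-Ke6, and no neighbour passed the threshold.

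Further lists of the pathway showed few differences. None of the 3 tested genes that load class I in the endoplasmic reticulum passed, with the smallest p for the chaperone Hspa5 (-0.31 ± 0.18, adjusted p = 0.569). None of the 8 genes of lysosomal class II processing passed. The endopeptidase gene Lgmn came closest, at 702, 832, 626 and 893 in DBA and 1158, 1085, 1179.6, 963 and 1006 in C57, without overlap (93261_at, -0.51 ± 0.13, adjusted p = 0.0886). Of the regulators of MHC genes 15 were tested and none passed, with the smallest p for the interferon gamma receptor Ifngr1 (-0.55 ± 0.21, adjusted p = 0.324). The class I-like genes outside the H2 symbols had 3 tested genes and none passed (Hfe, an iron regulator, -0.23 ± 0.11, adjusted p = 0.46). Among receptors and partners of class I 3 genes were tested and none passed, the smallest p being that of Pirb, a class I receptor also found on neurons (0.80 ± 0.25, adjusted p = 0.175). In these 5 lists, the numbers of tested sets with an unadjusted p under 0.05 were 0, 3, 2, 0 and 1, in this order.

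Cell type markers and array measures were set beside these values. Among 9 tested microglia genes, the complement genes C1qb (-0.85 ± 0.12, adjusted p = 0.00343) and C1qc (-0.65 ± 0.13, adjusted p = 0.0318) were lower in DBA. The C1qc call held in 3 of the 9 fits with 1 animal left out, with adjusted p up to 0.103 in the others. Of the 11 tested microglia sets 3 were above 0 and the median was -0.15. Levels were also summed per list over all its sets, dim ones included, so bright sets weigh most. The microglia sum, over 17 sets with C1qb and C1qc among them, was 4385 to 4959 in DBA and 5364 to 6137 in C57, without overlap. One gene of the oligodendrocyte list was lower in DBA (Mobp, -0.84 ± 0.12 in 99046_at, adjusted p = 0.00416). Of the 9 tested oligodendrocyte sets 1 was above 0 and the median was -0.22, and 4 had an unadjusted p under 0.05 by limma. Summed oligodendrocyte levels were 28944 to 34205 in DBA and 30053 to 42430 in C57. One gene of the B cell list, Ighm, was lower in DBA (-0.54 ± 0.12 in 93583_s_at, adjusted p = 0.0465), a call that held in 1 of the 9 fits with 1 animal left out, with adjusted p up to 0.144. Summed B cell levels were 914 to 1186 in DBA and 1040.3 to 1418 in C57.

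No gene passed by limma in the T cell, dendritic, natural killer, endothelial, choroid plexus, meningeal, blood, neuron or astrocyte lists. Of their sets, 3 in the meningeal list and 1 each in the choroid plexus, blood, neuron and astrocyte lists had an unadjusted p under 0.05. All 3 tested choroid plexus sets were above 0, with a median of 0.46, and this list summed to 3458 to 4652 in DBA and 1135 to 3535 in C57, which overlapped slightly. Its marker Ttr read 3148, 2969.6, 4143 and 3638 in DBA and 907, 2970.3, 1964, 2440.2 and 1995 in C57 (0.85 ± 0.30, adjusted p = 0.257). The T cell list summed to 5711 to 6937 in DBA and 5923 to 7411 in C57. Its 2 tested genes were Thy1, which neurons also express (-0.06 ± 0.11, adjusted p = 0.892), and Cd4 (-0.46 ± 0.44, adjusted p = 0.776). Its markers Cd3d, Cd3e, Cd3g and Cd8a were under the brightness limit, Cd3e at 13.8 to 29.3 in DBA and 15.5 to 27.1 in C57. Neuron markers summed to 29339 to 35963 in DBA and 31953 to 33798 in C57. The part of these cell types in the MHC values was not tested.

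Ratios of 3′ over 5′ control sets, on the log2 scale, had lower means in DBA for all 4 array control genes. For Gapdh the ratio was -0.36 ± 0.06 in DBA and -0.24 ± 0.04 in C57 (SD, n = 4 and 5, exact 2-sided permutation p = 0.0159, the smallest 2-sided value these animals allow, and 0.0635 after Benjamini-Hochberg adjustment over the 4 genes). The means were 0.56 in DBA and 0.69 in C57 for actin, 0.66 in DBA and 0.98 in C57 for pyruvate carboxylase, and 1.74 in DBA and 1.88 in C57 for the transferrin receptor, with exact permutation p of 0.159, 0.0635 and 0.127 in this order. The part of these ratios in the MHC values was not tested.

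Among the 49 tested members the median SD within a strain, on the log2 scale, was 0.27 in DBA and 0.30 in C57, against 0.23 in either strain over all tested sets. The array medians ran from 160 to 197.8 units of intensity, and pairs of arrays correlated at 0.946 to 0.970 across sets.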

How the data were processed

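RNA of single mouse brains was measured on 9 arrays (4 DBA, 5 C57). Per the labels' protocol, cRNA was made from 5 ug of total RNA. The deposited values are linear intensities of probe sets, and nothing in the sources used here gives the scanner software, the probe summary or the normalization. The 2% trimmed mean of these deposited intensities was about 500.3 on every array. The 18 arrays of the other platform were not used here.

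Values below a floor of 1.7 (percentile 1 of those above 0) were set to the floor (0.978% of values) before taking log2. The 66 array controls and the dimmest 25% of sets were left out, and 9316 sets were fitted with limma 3.58.1 in R 4.3.3, which was tested on simulated data. Folds are ratios of geometric means. The platform annotation gave 1 symbol to 10855 sets, several to 396 and none to 1237, and symbols updated through RefSeq added 0 members. Figures used matplotlib 3.10.9.

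Members and lists were chosen with earlier results of these data known. Named are sets past the threshold, other tested sets of those genes, sets without overlap between strains, the brightest set per role, and from each pathway list those past the threshold or the one with the smallest p. Psmb8 and Psmb9 values, H2-Ea and others outside this rule were named after their values were seen. The labels do not say that animals came from separate litters, so p-values measure the spread between these arrays, and precision is limited by how few arrays there are. Same-numbered animals of the strains correlated at -0.10, -0.02, -0.01 and -0.17 in their deviations from the strain mean, so numbers were not taken as pairs. Alternatives were other scalings, floors, filters, a variance trend, the number as a block, the brightest set per gene, an adjusted p under 0.01 and omission of single animals.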

Additional observations from a re-analysis of the deposited data

Results flagged for a closer look

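In 44 groups of animals (both strains of the named member sets), the gap of the highest or lowest animal to its neighbour was set against the range of the group, a check that flags about 1 in 20 groups by chance. It marked 2 groups. In the H2-K1 set 93120_f_at, DBA animal 3 was at 1176.4, far below the other DBA animals at 1437 to 1487. In the H2-D1 set 97541_f_at, C57 animal 4 was at 78.2, above the other C57 animals at 57.7 to 62.8 and below every DBA animal.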

How the results depend on the processing

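The 6 member calls became 3 with the replicate block (all sets: 73 calls), which dropped C57 animal 5 in effect: H2-D1 97541_f_at and 97540_f_at and H2-K1 97125_f_at kept their calls, while 93120_f_at (adjusted p = 0.201), 102991_s_at (0.0859) and 98472_at (0.0884) lost theirs. With the brightest set per gene the members gave 3 calls, 2 higher and 1 lower in DBA, and these were not the 3 that the block kept. That setting read H2-D1 by 101886_f_at and H2-K1 by 93120_f_at, so 97541_f_at, 97540_f_at and 97125_f_at were left out of it. Plain sets with 1 symbol alone gave 0 of 19 by limma, with 5 at an unadjusted p under 0.05. With the dimmest 50% of sets left out 24 member sets were tested, with 4 called higher and 1 lower in DBA. At an adjusted p under 0.01 the calls over all sets were 150. Leaving out each animal in turn gave 185 to 231 calls over all sets and 5 to 6 among members. Differences close to 0 changed sign: 93088_at of B2m was 0.0016 without DBA animal 2, 94285_at of H2-Eb1 was 0.079 without DBA animal 1, and 97174_r_at was 0.10 without C57 animal 3, 0.11 without C57 animal 4, 0.15 without DBA animal 1 and 0.18 without DBA animal 4. With 1 animal left out, the lowest values of these 3 sets were -0.22, -0.29 and -0.40. The alternatives for H2-Ea were chosen after seeing the data. The causes were not tested. Sets near the brightness limit of 35.4 are the least certain.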
